A study of Solenopsis invicta with 64 samples.

Results

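The genes described here were abundant in the ovary and scarce in the brain of Solenopsis invicta, the red imported fire ant. They were chosen on monogyne animals alone: genes with an LOC symbol, a mean of at least 100 counts per 1000000 counts (CPM) over the 8 monogyne ovaries, and an ovary mean at least 16 times the monogyne brain mean after 0.5 was added to both. Of 15512 LOC genes, 149 met the rule. They made up 5.29% of the 2817 genes that passed its ovary level. Monogyne values therefore chose the members, and only contrasts within polygyne animals were tested. The monogyne ovaries also entered the fit behind the ovary genotype tests. There they shared in the estimate of spread, and the members varied least in them.

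RNA was sequenced from single brains and single ovaries of 32 gynes, which are winged, unmated and reproductively mature queens caught in the field on days of mating flights. SB/SB animals came from monogyne and from polygyne colonies, and SB/Sb and Sb/Sb animals from polygyne colonies, with 8 animals of each of these 4 kinds. Monogyne colonies hold 1 egg-laying queen and polygyne colonies hold several, and SB and Sb are the alternative forms of a supergene on chromosome 16. The social form goes with the colonies sampled, and the labels name no colony. The design compares social forms and, within polygyne animals, supergene genotypes. The rule leaves out the polygyne SB/SB ovary 104D, which held 73573 counts. The other 31 ovaries held 10.1 to 22.6 M counts, and the brains held 9.46 to 26.9 M (104D's included). Brains and ovaries were extracted with different kits, so kit and tissue cannot be told apart.

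An insect ovary is a set of tubes in which germ cells divide and grow into eggs. In ants, nurse cells load the growing oocyte with RNA and protein, and follicle cells around it pass in yolk and later make the eggshell. Many genes of these steps are used in the ovary and hardly anywhere else, and their levels change as eggs mature. In whole ovaries, fewer cells of a type and less RNA per cell cannot be told apart. The labels do not give the stage of the eggs. LOC105200757, the gene of the vitellogenin receptor, through which oocytes take up yolk protein, was the ovary marker that could be named. It averaged 59.0 ± 12.7 CPM (SD, n = 8) in the monogyne ovary and 6.86 CPM in the monogyne brain, a ratio of 8.08 by the rule's formula, and so was not a member. The Sb/Sb ovary 19G held 11.5 CPM of it, below the highest of all brains at 15.0 CPM.

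Of the members, 143 were listed in the gene table of the assembly UNIL_Sinv_3.0: 135 as protein coding, 6 as long noncoding RNAs, 1 as another RNA and 1 as a pseudogene. The table gave none of them a name or a product, so no role is stated for any member. In all, 142 had a chromosome. Chromosome 16, which carries the supergene, held 13 members, or 6.16% of its 211 abundant genes. The share of abundant genes that were members was highest on chromosome 13, at 10.75%, and lowest on chromosome 14, at 1.46%. Only 4 pairs of members were neighbours among the 11799 LOC genes with counts and a chromosome in the gene table. These were LOC105194622 with LOC105194621 and LOC105202655 with LOC105202656 on chromosome 12, LOC105199888 with LOC105199889 on chromosome 7, and LOC105194811 with LOC105203206 on chromosome 16. In that table the span of 58 members overlapped another gene. The counts are not stated to use strand, and spans rather than exons were compared. How many reads such genes share is therefore not known.

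Monogyne ovary means ran from 100.03 CPM in LOC105203917 to 11296 CPM in LOC105200748, with a median of 198 CPM. In 104 members the mean was under 300 CPM, and in 12 it was 1000 CPM or more. CPM is not corrected for gene length, so an order of genes by CPM is an order by reads. The monogyne brain mean was 0 in 9 members, under 1 CPM in 53 and over 10 CPM in 26. The ovary-to-brain ratio had a median of 65.0 and reached 4445 in LOC105208055. Just inside the level limit stood LOC105207462 at 100.3 CPM, and just outside it LOC105198844 at 99.6 CPM. Just inside the ratio limit stood LOC105201443 at 16.5, and just outside it LOC105197465 at 15.99.

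In monogyne ovaries the 10 members with the most reads differed little between animals, apart from LOC105195655. LOC105200748, on chromosome 2, had a lowest value of 9545, a median of 10658 and a highest of 14309 CPM. LOC105208055, on chromosome 11, ran from 4575 through 6105 to 7969 CPM. LOC105194572, on chromosome 2, ran from 1681 through 1962 to 2125 CPM. In these genes the highest monogyne ovary was less than 2 times the lowest. LOC105197246 on chromosome 8 averaged 1749 ± 204 CPM, LOC105195247 (unplaced) 1543 ± 300, LOC105193824 on chromosome 16 1450 ± 132 and LOC105202267 on chromosome 13 1272 ± 151 CPM (SD, n = 8 each). LOC105207402 on chromosome 16 averaged 1140 ± 196 CPM and LOC105204024 on chromosome 6 1112 ± 113 CPM (SD, n = 8 each). LOC105195655, unplaced, averaged 1503 CPM with an SD of 2307 CPM, above its own mean.

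Summed over all members, these genes took 6.38 ± 0.42% of the counts of a monogyne ovary (SD, n = 8), with a range of 5.70% to 6.93%. The share was 5.54 ± 0.77% in polygyne SB/SB ovaries (n = 7), 4.68 ± 1.18% in SB/Sb (n = 8) and 3.84 ± 1.04% in Sb/Sb (n = 8). The steps between polygyne genotypes were smaller than the SD of the SB/Sb ovaries, and the polygyne groups overlapped: 4.54% to 6.29% in SB/SB, 2.79% to 6.16% in SB/Sb and 1.86% to 5.21% in Sb/Sb. The lowest SB/Sb ovary was 15A, and the lowest Sb/Sb ovary was 19G. In 19G a single gene outside the set, LOC105192919, took 11.8% of all counts, and with that gene left out of the total the members' share was 2.11%. In brains the same genes took 0.0556% to 0.148% of the counts. Part of the ovary share came from LOC105200748 and LOC105208055, the 2 members with the most reads. Their summed share averaged 1.76% in monogyne, 1.07% in polygyne SB/SB, 0.778% in SB/Sb and 0.347% in Sb/Sb ovaries. The other members averaged 4.62%, 4.46%, 3.90% and 3.49% in the same order.

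**Figure D1:**
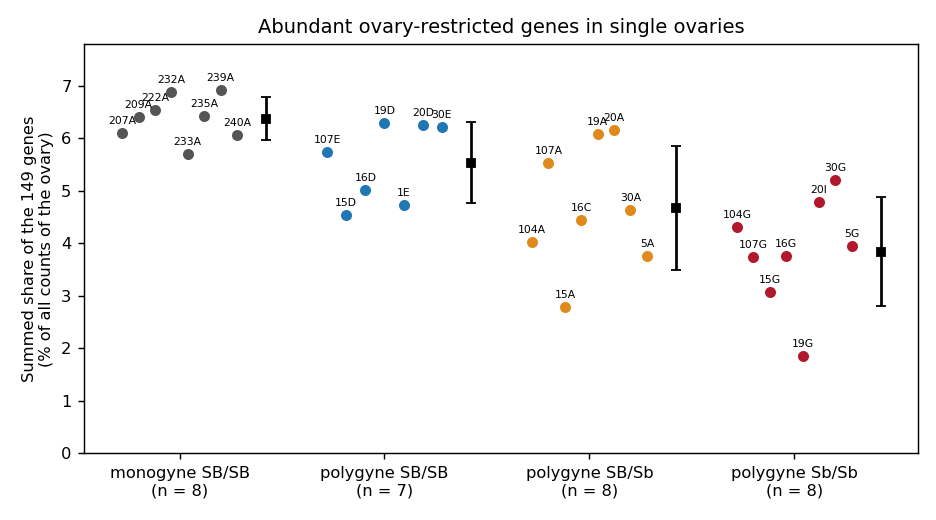
Share of all counts taken by the 149 genes in each of 31 ovaries (percent, vertical axis) by group; points are single ovaries with their animal code, and squares with bars are the mean ± SD. Monogyne ovaries sit between 5.70% and 6.93%, and the Sb/Sb ovaries between 1.86% (19G) and 5.21%.

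The title codes of polygyne animals carry 9 numbers, of which 8 occur in more than 1 genotype, and their meaning is not given. Among the 6 numbers with a used ovary of all 3 genotypes, the SB/SB ovary had the highest share in 6 of 6 and the Sb/Sb ovary the lowest in 4 of 6. At number 19 the shares were 6.29% in SB/SB, 6.09% in SB/Sb and 1.86% in Sb/Sb. At number 15 they were 4.54%, 2.79% and 3.08%, and at number 16 they were 5.01%, 4.45% and 3.77%. At both of these numbers the share was below the genotype's mean in every genotype. Without LOC105200748 and LOC105208055, this no longer held at number 16 in SB/SB and SB/Sb. There the other members took 4.70% and 4.33%, above the genotype means of 4.46% and 3.90%. At number 20 the shares were 6.27%, 6.16% and 4.79%, at number 30 6.21%, 4.63% and 5.21%, and at number 107 5.73%, 5.54% and 3.75%. Without LOC105200748 and LOC105208055, the SB/SB ovary was not the highest at number 107, with 4.26% beside 4.27% in SB/Sb.

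The higher level in the ovary was also tested in polygyne animals, which the rule did not use. In an edgeR quasi-likelihood test over 23 polygyne animals with the animal as a block, all 148 members tested were higher in the ovary at a Benjamini-Hochberg adjusted p under 0.05. Of the 10546 genes tested there, 42.6% were called higher in the ovary. The members' median log2 difference, ovary minus brain, was 5.73, with a range of 3.02 (LOC105202655) to 16.3, against a median of 0.15 over all genes tested. The member not tested was LOC105202816, which is described below for its loss in Sb/Sb ovaries. In 113 of the 149 members the lowest of the 23 polygyne ovaries was still above the highest of their 23 brains, as it was in 9.65% of the 10797 genes tested in the ovary. Ovary 19G was the lowest in 26 of the 36 members that overlapped, and without 19G 133 members were free of overlap, beside 13.4% of genes tested. Within a genotype the ovary lay wholly above the brain in 142 members in SB/SB, 142 in SB/Sb and 130 in Sb/Sb animals, beside 25%, 22.7% and 23.2% of the genes tested.

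**Figure D2:**
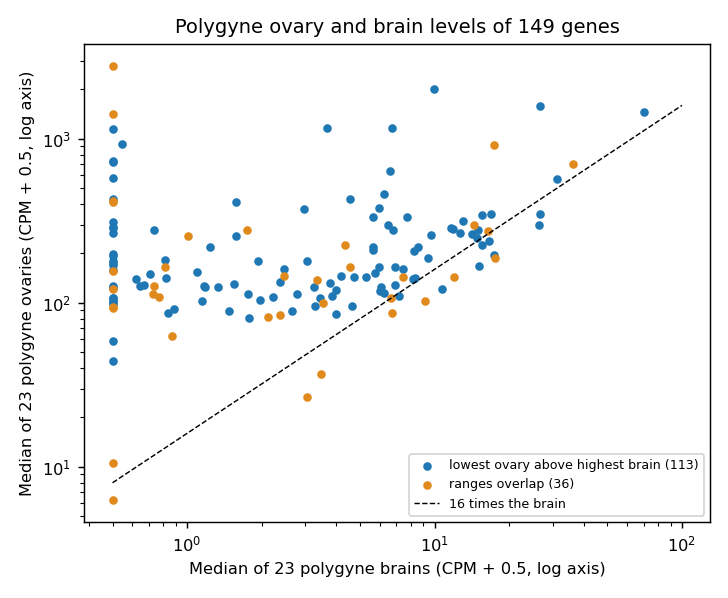
Median of 23 polygyne ovaries (vertical) against the median of the same animals' 23 brains (horizontal) for each of the 149 genes, both as CPM + 0.5 on log axes; colour marks whether the lowest ovary lies above the highest brain, and the dashed line is 16 times the brain. Of the genes, 113 have no overlap and 36 overlap.

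Single ovaries differed more at these genes than at the abundant genes as a whole, which include them, most of all in SB/Sb and Sb/Sb. The median SD of log2(CPM + 0.5) within a group was 0.589 over the members and 0.286 over all 2817 abundant genes. An SD over 1 was found in 28 members (18.8%), against 2.13% of abundant genes. The spread rose from group to group: the members' median SD was 0.203 in monogyne, 0.254 in polygyne SB/SB, 0.599 in SB/Sb and 0.828 in Sb/Sb ovaries. Abundant genes had 0.142, 0.225, 0.305 and 0.376 in the same order. Much of the value rested on 1 ovary in each of the last 2 groups: without 15A the members' SB/Sb value was 0.411, and without 19G their Sb/Sb value was 0.486. Abundant genes then had 0.293 and 0.302. These SDs are descriptions, and their differences were not tested.

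The members that fell below 50% of their monogyne mean show which ovaries carried this spread. In monogyne ovaries 2 to 5 members were that low, and in polygyne SB/SB ovaries 1 to 22. In SB/Sb ovaries the counts were 1, 3, 3, 11, 21, 23, 46 (5A) and 90 (15A). In Sb/Sb ovaries they were 8, 13, 26, 37, 41, 47, 67 (15G) and 123 (19G). The monogyne ovaries set this mean and chose the members, so their range is no standard for the other groups. Ovaries of SB/Sb and of Sb/Sb lay both within and above the polygyne SB/SB range. The most low members were in 15A, 15G and 19G. Across the 31 ovaries, 71 members varied more than 10-fold, and 146 were detected in all 31. The number of genes detected moved with the same groups: polygyne SB/SB ovaries had 11528 to 11794, SB/Sb ovaries 11803 to 12187 and Sb/Sb ovaries 11837 to 12523 (19G). The part of this, and of 19G's leading gene, in the members' lower CPM was not tested.

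**Figure D3:**
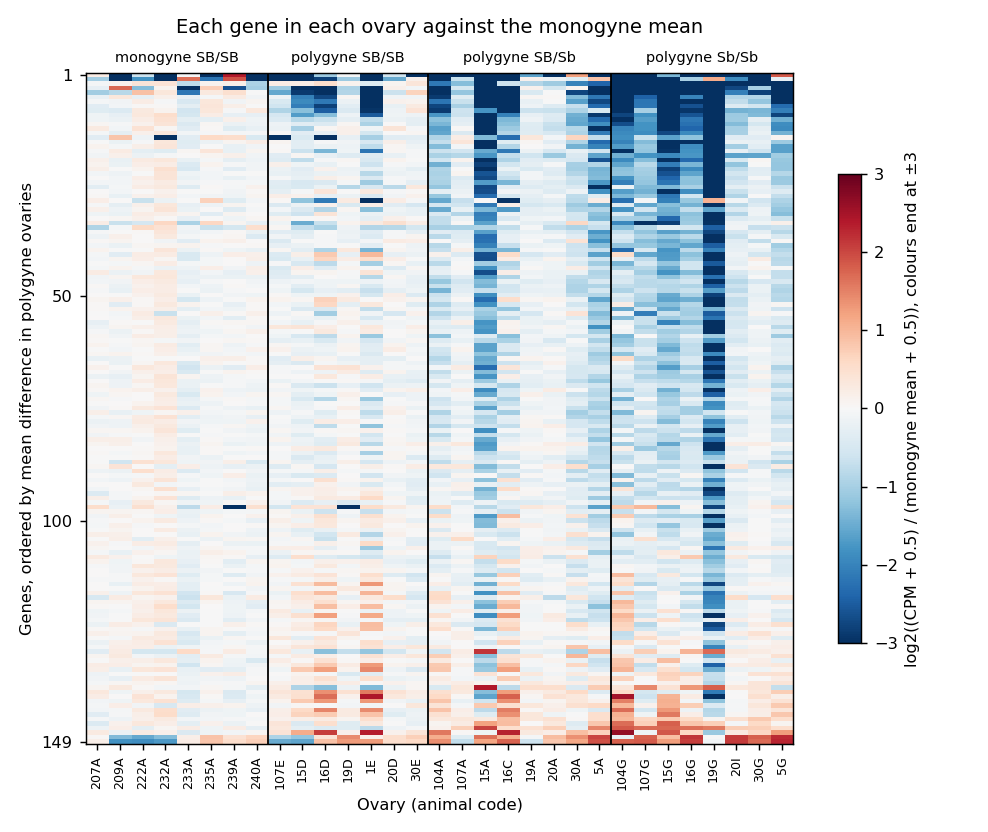
Each of the 149 genes (rows, ordered by mean difference in polygyne ovaries) in each of 31 ovaries (columns, by group) as log2 of CPM + 0.5 over the monogyne mean + 0.5, with colours ending at ±3. Most rows are pale in monogyne and polygyne SB/SB ovaries, while the columns of 15A and 19G are blue over most rows.

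The largest losses in single ovaries were in the 2 members with the most reads. LOC105200748 stood at 10163 CPM in the median polygyne SB/SB ovary, from 325 CPM in 1E to 11765 CPM in 19D. In SB/Sb it ran from 45.7 CPM in 15A through a median of 3566 to 11841 CPM in 19A. In Sb/Sb it ran from 1.09 CPM in 19G and 1.62 CPM in 15G through a median of 1509 to 6137 CPM in 30G. Every genotype held ovaries far below the lowest monogyne value, and no Sb/Sb ovary reached it. LOC105208055 followed with medians of 4590, 1722 and 584 CPM in SB/SB, SB/Sb and Sb/Sb, and with 1.14 CPM in 19G. Neither gene passed the test for Sb/Sb against SB/SB, with log2 differences of -1.68 ± 1.01 (SE; edgeR adjusted p = 0.274) and -1.83 ± 0.88 (adjusted p = 0.161). The groups overlapped in both genes. LOC105208054, whose span overlaps LOC105208055, had a mean of 40.7 CPM in monogyne ovaries, and LOC105200923, which overlaps LOC105200748, had 0.0522 CPM.

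Other members were high in some of the ovaries where LOC105200748 was low. LOC105200173, on chromosome 7, ran from 681 through 972 to 1265 CPM in monogyne ovaries, and reached 5333 CPM in 104G (Sb/Sb), 5079 in 1E (SB/SB), 3275 in 16C (SB/Sb) and 3056 in 16D (SB/SB). LOC105202402, also on chromosome 7, ran from 86.9 to 142 CPM in monogyne ovaries and was highest in the same 4 ovaries, at 740, 612, 592 and 500 CPM. The vitellogenin receptor gene, at 44.7 to 83.3 CPM in monogyne ovaries, was highest in these 4 as well, at 703, 663, 590 and 556 CPM. These 4 ovaries come from all 3 polygyne genotypes. There LOC105200748 stood at 135, 325, 420 and 1711 CPM and LOC105208055 at 299, 485, 743 and 1426 CPM. In 19G all of these genes were low: 38.3 CPM for LOC105200173, 54.8 for LOC105202402 and 11.5 for the receptor. The ovaries of 104G, 1E, 16C and 16D thus combined low LOC105200748 with a high receptor level, and 19G combined low with low. In 15G LOC105200748 stood at 1.62 CPM and the receptor at 246 CPM, and in 15A they stood at 45.7 and 22.4 CPM. LOC105200173 and LOC105202402 were chosen for description after their values were seen, and no test was made.

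Polygyne SB/SB and monogyne ovaries share the SB/SB genotype and differ in social form. The monogyne values were used to choose the members, so this contrast is a description. The median log2 difference was -0.13, beside 0.01 over all genes tested, and 132 of 149 members lay within 0.5 of no difference. The lowest was LOC105195655 at -1.82 and the highest LOC105202402 at 1.14.

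Within polygyne animals, the members were lower in Sb/Sb than in SB/SB ovaries more often than other genes, by a margin that changed with the fit. In the edgeR quasi-likelihood test over all 31 ovaries, 55 of 149 members (36.9%) fell and 4 rose at an adjusted p under 0.05. Among all 10797 genes tested, 5.88% were lower and 8.21% were higher, 14.1% in either direction. Among the other 2668 abundant genes, 325 (12.2%) were lower and 36 were higher. The members' median log2 difference was -0.59, against -0.14 for the other abundant genes and 0.01 for all genes tested, and 133 of 149 members lay below 0 (89.3%, beside 70.5% of other abundant genes). Most losses were moderate: the 55 genes had a median of -0.78, 40 of them fell by less than 2-fold and 15 by 2-fold or more. Of the genes that fell, 5 were among the 13 members of chromosome 16, beside 55 of the 149 members in all.

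The count of 59 called members, in either direction, changed with the samples and the tool. The main fit takes 1 estimate of spread per gene over all groups. In it the monogyne ovaries, which chose the members, spread least (median SD of members 0.203, beside 0.828 in Sb/Sb). With the polygyne ovaries alone the count was 22 (14.8% of members), beside 8.08% of all genes tested and 6.11% of other abundant genes in that fit. Of the 22, 20 were lower (13.4% of members), beside 2.59% of all genes tested and 5.36% of other abundant genes. With the Sb/Sb and SB/SB groups alone the count was 17 (11.4%), beside 6.6% and 4.69%, and 15 were lower (10.1%, beside 2.11% and 4.16%). With limma's voom the count was 96 (64.4%), beside 22.7% and 27.6%, and 89 were lower (59.7%, beside 11.3% and 25.3%). With the polygyne ovaries alone and the title number as a block the count was 22 (14.8%), beside 9.01% and 7.98%. There 20 were lower (13.4%, beside 3.28% and 7.46%). Leaving out 1 ovary at a time gave 38 to 78 calls: 38 without 19D, 39 without 15G, 39 without 20D, 52 without 19G and 78 without 30G. In the same fits 9.54%, 10.1%, 9.26%, 9.92% and 18.7% of all genes tested were called, in that order.

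**Figure D4:**
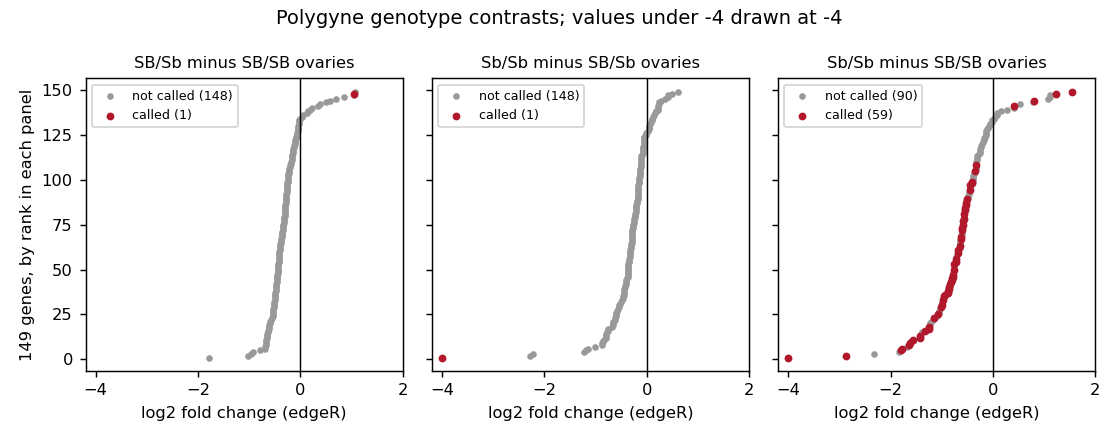
Log2 fold change of the 149 genes in 3 contrasts between polygyne ovaries, each panel sorted by its own values, with genes at an adjusted p under 0.05 in red; values under -4 are drawn at -4. The red genes number 1, 1 and 59, and in the right panel, Sb/Sb minus SB/SB, 133 of 149 genes lie left of 0.

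LOC105202816, a long noncoding RNA gene on chromosome 16, had the largest loss. It ran from 192 through 399 to 495 CPM in monogyne ovaries and had 430, 432, 524, 396, 284, 392 and 477 CPM in the 7 polygyne SB/SB ovaries. The SB/Sb ovaries held 83.4, 153, 3.16 (15A), 242, 200, 176, 92.1 and 69.0 CPM. The Sb/Sb ovaries held 4.27 CPM in 15G and 0 to 0.760 CPM in the other 7, 3 of which had no count. The 3 polygyne genotypes did not overlap except that 15A, an SB/Sb ovary, lay under 15G. Sb/Sb was lower than SB/SB by a log2 difference of -9.22 ± 0.79 (SE, edgeR adjusted p = 2.13e-09) and lower than SB/Sb by -7.44 ± 0.74 (adjusted p = 2.07e-07), with an adjusted p of 0.059 for the latter in limma's voom fit. SB/Sb against SB/SB gave -1.78 ± 0.56 (adjusted p = 0.112). In the table its span overlaps LOC105202817, a protein coding gene at 0.0884 to 1.59 CPM in monogyne ovaries and 0.543 to 5.21 CPM in Sb/Sb ovaries. All brains held 0 to 0.041 CPM of LOC105202816. In the same brains LOC105202817 held 312 to 3492 counts, beside 0 or 1 count of LOC105202816.

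LOC105194811, a protein coding gene on chromosome 16, had lower ovary values and higher brain values in polygyne animals with Sb than in polygyne SB/SB animals. Its ovary values were 147 to 202 CPM in polygyne SB/SB, 57.2 to 143 CPM in SB/Sb and 6.79 to 93.6 CPM in Sb/Sb, so that SB/SB overlapped with neither of the other groups. Sb/Sb against SB/SB gave a log2 difference of -1.64 ± 0.25 (edgeR adjusted p = 5.03e-05). In the brain, 7 of 8 polygyne SB/SB animals had 0 CPM and the other had 0.213 CPM. The SB/Sb brains held 1.24 to 4.42 CPM and the Sb/Sb brains 4.18 to 9.23 CPM. Monogyne SB/SB brains held 0 to 2.42 CPM (median 0), so that they overlapped with SB/Sb brains. Of the 10797 genes, this was the one in which every Sb/Sb ovary lay below and every Sb/Sb brain above the SB/SB animals (0.00926%). The difference between the tissues was found by its values and was not tested. The next gene with counts on the chromosome, LOC105203206, showed no such order (log2 -0.09 ± 0.66, adjusted p = 0.951). It was low in both tissues of single animals: 0.155 CPM in the ovary and 0 in the brain of 107E, and 15.1 and 0 CPM in 16D. In the other 5 polygyne SB/SB ovaries it stood at 114 to 192 CPM.

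Other large losses in Sb/Sb ovaries had broad ranges that overlapped with SB/SB, as in 4 genes on chromosomes 12, 16 and 1. LOC105195450 on chromosome 12 had a median of 73.4 CPM in SB/SB ovaries and 9.60 CPM in Sb/Sb, a log2 difference of -2.88 ± 0.84 (SE, edgeR adjusted p = 0.0215). LOC105196031, also on chromosome 12 and at 0 in all brains, fell from a median of 84.6 to 24.8 CPM (log2 -1.80 ± 0.52, adjusted p = 0.0214). LOC105203113 on chromosome 16 fell from a median of 113 to 29.8 CPM (log2 -1.79 ± 0.51, adjusted p = 0.0197). LOC105202083 on chromosome 1 fell from 82.7 to 18.0 CPM (log2 -1.62 ± 0.46, adjusted p = 0.0199). None of these 4 calls held with the polygyne ovaries alone, where the directions were the same. The call of LOC105195450 was also lost without 30E (edgeR adjusted p = 0.0827), and that of LOC105202083 without 20D.

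Groups separated completely in a few members. In 7 of them every Sb/Sb ovary lay below every SB/SB ovary, as in 0.537% of the genes tested. These were LOC105202816, LOC105194811, LOC105193914, LOC105197215, LOC105198137, LOC105198553 and LOC105199888. LOC105193914, on chromosome 6, stood at 957 to 1218 CPM in SB/SB and at 22.7 to 936 CPM in Sb/Sb ovaries, but its log2 difference of -0.84 ± 0.33 did not pass the test (edgeR adjusted p = 0.0849). LOC105197215, on chromosome 3, stood at 284 to 375 CPM and at 12 to 279 CPM (-1.15 ± 0.33, adjusted p = 0.0189). In the long noncoding RNA gene LOC105198137, on chromosome 8, the values were 142 to 161 CPM and 14.7 to 122 CPM (-0.76 ± 0.21, adjusted p = 0.0175). Ovary 19G was the lowest Sb/Sb ovary in LOC105193914, LOC105197215, LOC105198137, LOC105198553, LOC105199888 and LOC105194811. LOC105199888 fell by 1.33 on the log2 scale (SE 0.35, adjusted p = 0.012), while its neighbour LOC105199889 gave -0.61 ± 0.29 (adjusted p = 0.152). In the pair on chromosome 12, LOC105194621 fell (log2 -0.98 ± 0.26, adjusted p = 0.0133), with -0.20 ± 0.17 in LOC105194622 (adjusted p = 0.473). The differences within these pairs were not tested. The calls of LOC105197215, LOC105198137 and LOC105198553 were lost with polygyne ovaries only, with 2 groups only and with the title number as a block. Their edgeR adjusted p reached 0.0872, 0.0859 and 0.0745 there. That of LOC105199888 was lost with the block (edgeR adjusted p = 0.0697), and that of LOC105194621 with 2 groups only (0.0574).

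Among the most read members, LOC105197246 fell in Sb/Sb ovaries from a mean of 1674 ± 187 CPM (SD, n = 7) to 1013 ± 425 CPM (n = 8), with a log2 difference of -0.82 ± 0.23 (SE, edgeR adjusted p = 0.0151). That call was lost with 2 groups only (edgeR adjusted p = 0.0733) and with 104D included. LOC105194572 had means of 2465 and 1707 CPM (log2 -0.62 ± 0.23, adjusted p = 0.0715), LOC105204024 had 1085 and 593 CPM (-0.99 ± 0.38, adjusted p = 0.0733) and LOC105195247 had 1118 and 451 CPM (-1.41 ± 0.57, adjusted p = 0.0933). LOC105193824 had 1427 and 945 CPM (-0.70 ± 0.30, adjusted p = 0.112). LOC105207402 stayed close to level at 1253 and 1353 CPM (0.03 ± 0.17, adjusted p = 0.929).

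The 4 members that rose in Sb/Sb ovaries were LOC105193219, LOC105202267, LOC105197513 and LOC105193214. LOC105193219, a long noncoding RNA gene on chromosome 16, ran from 218 through 260 to 312 CPM in monogyne ovaries and had 330, 217, 201, 206, 153, 239 and 260 CPM in the polygyne SB/SB ovaries. The SB/Sb ovaries held 219 to 1077 CPM (median 405) and the Sb/Sb ovaries 375 to 952 CPM (median 810). Every Sb/Sb ovary lay above every SB/SB ovary, as in 2.03% of genes tested, and SB/Sb overlapped with both. Sb/Sb against SB/SB gave a log2 difference of 1.55 ± 0.28 (SE, edgeR adjusted p = 0.000474). Its span overlaps LOC105193218, which held 0.927 to 4.17 CPM in Sb/Sb ovaries.

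LOC105202267 on chromosome 13 rose by a log2 difference of 1.23 ± 0.41 (edgeR adjusted p = 0.0438), with 509 to 1519 CPM in SB/SB and 773 to 4376 CPM in Sb/Sb ovaries. It was also the member with the highest brain level, 353 CPM in the Sb/Sb animal 30G and 292 CPM in 104G, beside a median of 26.6 CPM over brains. LOC105197513 on chromosome 2 rose by 0.81 ± 0.24 (adjusted p = 0.0248). LOC105193214 on chromosome 16 rose by 0.41 ± 0.10 (adjusted p = 0.00753), from 397 to 637 CPM in SB/SB to 469 to 877 CPM in Sb/Sb. In both of these genes the genotypes overlapped. The call of LOC105202267 was lost in 12 of 26 other settings, with an edgeR adjusted p of 0.131 without 19G, and that of LOC105197513 in 7 of 26, with 0.111 with the title number as a block. Of the 4 rises, 2 were on chromosome 16, which held 13 of the 149 members. The shares of all genes of that chromosome that rose or fell are not given here.

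Between neighbouring genotypes few members passed the test, although most were lower with the added Sb copy. In SB/Sb against SB/SB ovaries, 1 member rose and 0 fell in edgeR, beside 1.53% and 0.13% of all genes tested and 1.66% in either direction. The gene was LOC105193219 (log2 1.06 ± 0.27, adjusted p = 0.0391), and the call was lost in 15 of 26 other settings, with an edgeR adjusted p of 0.16 without 15A and 0.395 with the title number as a block. DESeq2 called 2 members and voom 3, beside 3.21% and 2.28% of all genes tested. An unadjusted edgeR p under 0.05 was found in 33 members (22.1%), beside 12.3% of all genes tested and 9.56% of other abundant genes. The median was -0.33, against -0.06 for other abundant genes and -0.01 for all genes, and 134 of 149 lay below 0 (89.9%, beside 62.4% of other abundant genes). Every SB/Sb ovary lay below every SB/SB ovary in LOC105194811 and LOC105202816, as in 0.0741% of genes tested. In edgeR's test of Sb/Sb against SB/Sb ovaries, 0 members rose and 1 fell, which was LOC105202816, beside 0.00926% and 0.13% of all genes tested, and 0.139% in either direction. These groups were free of overlap in 0 members, beside 0.0556% (Sb/Sb below) and 0.037% (above) of genes tested. The median was -0.26, against -0.08 for other abundant genes and 0.01 for all genes, and 126 of 149 lay below 0 (84.6%, beside 71.9% of other abundant genes). In 15 members (10.1%) the unadjusted p was under 0.05, near the 7.02% of all genes tested and the 7.2% of other abundant genes. These contrasts share the SB/Sb ovaries with each other and the outer groups with the previous one. With both 19G and 15A left out, an alternative chosen after seeing the data, LOC105194811 was called lower at both steps, by log2 -0.72 ± 0.14 (edgeR adjusted p = 0.00532) and -0.76 ± 0.14 (adjusted p = 0.00853).

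Some members were nearly on or off in single ovaries of every group. LOC105195655 stood at 0 and 0.343 CPM in the monogyne ovaries 209A and 232A, and at 4728 and 5666 CPM in 233A and 239A. In polygyne SB/SB it held 0.194 to 0.671 CPM in 1E, 107E and 15D and 216 to 1661 CPM in the other 4. In SB/Sb it held 0.333 CPM in 104A and 2702 CPM in 5A, and in Sb/Sb 0.187 CPM in 107G and 3260 CPM in 19G. Ovary 19G, the lowest for most members, was the highest Sb/Sb ovary for this gene. LOC105195656, on chromosome 4, was listed at 0 in 209A and 232A too, and reached 1779 CPM in 239A. Their within-group SDs of log2 values were 4.99 and 4.21, and Sb/Sb against SB/SB gave 0.78 ± 1.67 (SE, edgeR adjusted p = 0.807) and 0.53 ± 1.76 (adjusted p = 0.885). LOC105202336, on chromosome 5, ran from 11.5 to 590 CPM in monogyne ovaries and from 2.17 to 89.6 CPM in Sb/Sb ovaries (log2 -2.32 ± 1.08, adjusted p = 0.144).

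The steadiest members bounded the other end. LOC105204805, on chromosome 16, ran from 310 to 372 CPM in SB/SB, 320 to 379 CPM in SB/Sb and 165 to 396 CPM in Sb/Sb ovaries, the lowest again in 19G (log2 -0.17 ± 0.09, adjusted p = 0.18). LOC105201443, on chromosome 4, had the smallest within-group SD, 0.194, and fell by 0.34 on the log2 scale (SE 0.10, edgeR adjusted p = 0.0266), a call lost in 14 of 26 other settings (adjusted p up to 0.116). LOC105194882, also on chromosome 4, stood at 152 ± 15.1 CPM in SB/SB (SD, n = 7) and 128 ± 28.8 CPM in Sb/Sb (n = 8), a difference of -0.32 ± 0.11 (adjusted p = 0.059). On chromosome 16, LOC105202904 fell from 349 ± 44.6 to 232 ± 69.8 CPM (log2 -0.67 ± 0.18, adjusted p = 0.0154), and LOC105199329 had means of 160 and 73.9 CPM (-1.23 ± 0.74, adjusted p = 0.274).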

How the data were processed

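Per the labels' protocols, RNA of single brains and ovaries was made into Smart-seq2 libraries, which are amplified by PCR without molecular identifiers; counting intervals therefore cover counting error only. Per the submitters' processing notes, reads were processed with Trimmomatic 0.32, STAR 2.5.3a and featureCounts. The genome build, annotation and strand setting are not given in the sources used here. Raw counts per gene, as the authors deposited them in 64 files, are whole numbers without normalization: 15710 rows, of which 198 without an LOC symbol held 0.000177% of counts. They stayed out of the tests.

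CPM was computed as count × 1000000 / library total. Tests used edgeR 4.0.16 in R 4.3.3: TMM scaling, filterByExpr with a minimum count of 10, a quasi-likelihood F-test and Benjamini-Hochberg adjustment over all genes tested. All 31 ovaries entered 1 fit with a coefficient per group; the tissue fit had the animal as a block, since title codes link both tissues of an animal. The code was tested on simulated data. Alternatives used DESeq2 1.42.0 and limma 3.58.1 (voom), other scalings, filters and sample sets.

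The members and lists were chosen with earlier results of these data known. Named genes were the 10 members with the highest monogyne ovary mean, up to 6 called members per contrast and direction, the 6 most and 4 least variable, 10 members of chromosome 16 and the genes at the rule's edges; others are said to be chosen after their values were seen, as were those without overlap, the neighbouring pairs and the overlapping genes. A search for sequence motifs, protein comparisons and other cell type markers was not made, since no sequences or product names were used here. At the shallowest ovary, 100 CPM is 1010 counts.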

Additional observations from a re-analysis of the deposited data

Results flagged for a closer look

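LOC105194811 went in opposite directions in the tissues of the same genotypes: polygyne Sb/Sb brains averaged 6.52 CPM and polygyne SB/SB brains 0.0266 CPM, while every Sb/Sb ovary lay below every SB/SB ovary. The difference was not tested.

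A sample far from the rest of its group was found in 13 of 120 sets of values (single genes or the summed share, per group); chance gives about 1 in 20 for values that follow a normal distribution, and its rate for skewed CPM values was not computed. In ovary 15A (SB/Sb), LOC105197246 was lowest at 575 CPM and LOC105202267 highest at 6696 CPM, beside 2140 CPM in the next ovary. In 19G (Sb/Sb), LOC105195655 was highest at 3260 CPM and LOC105204805 lowest at 165 CPM. In 30E (SB/SB), LOC105195655 was highest at 1661 CPM and LOC105195450 highest at 338 CPM. LOC105195656 stood apart at 1779 CPM in the monogyne ovary 239A, at 802 CPM in 30A (SB/Sb) and at 1211 CPM in 5G (Sb/Sb). LOC105202816 was highest in the Sb/Sb ovary 15G at 4.27 CPM, LOC105202336 in the Sb/Sb ovary 30G at 89.6 CPM, and LOC105193214 in the SB/Sb ovary 16C at 832 CPM. The summed share in polygyne SB/SB brains was highest in 1E at 0.143%, beside 0.101% in the next brain.

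In the ovary 104D, left out for its 73573 counts, LOC105202133 stood at 68259 CPM, beside at most 459 CPM in any other ovary.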

How the results depend on the processing

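The number of members was 228 at a level limit of 50 CPM, 74 at 200 CPM and 239 at a ratio of 8; leaving out 1 monogyne animal gave 142 to 154. With TMM-scaled CPM the mean monogyne share was 5.94%. The calls for Sb/Sb against SB/SB numbered 22 with polygyne ovaries only, 17 with 2 groups only and 96 with voom. They numbered 38 to 78 with 1 ovary left out. By other member limits they numbered 31 at 200 CPM, 96 at a ratio of 8 and 39 at a ratio of 32. Of all genes tested in the main fit, 14.1% were called. For SB/Sb against SB/SB the count was 0 without the low-count filter, with polygyne ovaries only and with 2 groups only, 2 with 104D, with DESeq2 and without 19G and 15A, 3 with voom, and 0 to 2 with 1 ovary left out. For Sb/Sb against SB/Sb it was 2 without 19G and 15A and 1 to 1 with 1 ovary left out. No called result reversed its direction. The members free of overlap between polygyne tissues numbered 133 without 19G.

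Title numbers were not used as pairs in the main fit, since their meaning is not given. Of 20 same-number pairs of ovaries, 14 had a correlation of deviations over 0.1 (median 0.27, -0.24 to 0.53). The median was -0.019 over 156 pairs with other numbers. These ran more widely, from -0.54 (16C with 30E) to 0.64 (104G with 16C), and their share over 0.1 is not given here. Ovaries that shared a number were thus more alike by the median, while the main fit treated them as independent. With the replicate block the calls were 22 for Sb/Sb against SB/SB (21 shared with the fit without it), 0 for SB/Sb against SB/SB and 1 for Sb/Sb against SB/Sb. Without the animal as a block all 148 members were again higher in the ovary.

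At 10.1 M counts or more, depth does not limit these genes in ovaries; levels under 1 CPM in brains rest on few counts.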
